A study of Mus musculus with 7 samples.

Results

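The circadian clock genes of the mouse spleen were described across 4 libraries of the genotype labelled Fpr2KO and 3 libraries labelled wild type (WT, genotype C57BL/6N). They were chosen by name as 10 members: the activator gene Arntl, the repressor genes Per1, Per2, Per3, Cry1 and Ciart, the nuclear receptor genes Nr1d1 and Nr1d2, and the output genes Dbp and Tef. All 10 were among the 55414 genes of the deposited table, and all 10 passed the filter on low counts, which left 16089 genes to test. Fpr2 encodes a receptor of myeloid cells for formylated peptides, and the series compared the spleen transcriptome with and without it. Polyadenylated RNA was measured by sequencing. The labels give no age, sex, housing or time of day at collection, and neither the construction nor the strain background of the Fpr2KO allele. Nor do they say that the libraries are from different animals, and the spread that p-values are set against may therefore be technical.

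The mammalian clock is a feedback loop of transcription. ARNTL (also called BMAL1) pairs with CLOCK and switches on genes that carry an E-box, among them the Per and Cry genes, whose proteins return to the nucleus and block that activation. A further loop runs through Nr1d1 and Nr1d2, whose proteins REV-ERB alpha and beta repress Arntl through RORE sites, and the PAR bZIP factors DBP and TEF act on D-box sites, where NFIL3 represses. In mouse peripheral tissues under a light-dark cycle, Arntl transcripts are highest around the start of the light phase, Nr1d1 and Nr1d2 follow during the light phase, and Dbp, Per and Ciart transcripts come later, with Cry1 last in the dark phase. Dbp is known for a swing of many-fold over the day.

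The promoters of Ciart, Per3 and Arntl are printed because each holds the letters of a different arm of that loop. Of the 10 members, all but Per2 had a window in the RefSeq promoter table (GRCm38.p6), with 12 windows for 9 genes, each running from 250 bases before to 50 bases after a gene start. Capitals mark matches, on either strand, to the motifs searched: the E-box CACGTG, its variant CACGTT, the D-box TTANGTAA, the RORE core TAGGTCA and the cyclic AMP element TGACGTCA. The Ciart window is chr3:95882179-95882478 on the minus strand, the Per3 window chr4:151044616-151044915 on the minus strand and the printed Arntl window chr7:113207261-113207560 on the plus strand.
Ciart: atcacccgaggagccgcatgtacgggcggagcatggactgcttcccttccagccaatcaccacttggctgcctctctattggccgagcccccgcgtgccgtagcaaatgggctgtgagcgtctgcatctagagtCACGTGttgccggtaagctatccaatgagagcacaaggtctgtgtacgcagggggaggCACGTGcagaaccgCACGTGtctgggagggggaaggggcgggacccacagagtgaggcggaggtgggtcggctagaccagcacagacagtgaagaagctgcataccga
Per3: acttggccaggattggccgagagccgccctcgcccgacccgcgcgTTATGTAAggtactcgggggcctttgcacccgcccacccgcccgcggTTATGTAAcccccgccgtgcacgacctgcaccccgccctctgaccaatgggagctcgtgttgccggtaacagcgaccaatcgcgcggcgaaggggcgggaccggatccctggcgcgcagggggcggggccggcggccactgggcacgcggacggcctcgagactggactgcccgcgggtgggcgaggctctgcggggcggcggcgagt
Arntl: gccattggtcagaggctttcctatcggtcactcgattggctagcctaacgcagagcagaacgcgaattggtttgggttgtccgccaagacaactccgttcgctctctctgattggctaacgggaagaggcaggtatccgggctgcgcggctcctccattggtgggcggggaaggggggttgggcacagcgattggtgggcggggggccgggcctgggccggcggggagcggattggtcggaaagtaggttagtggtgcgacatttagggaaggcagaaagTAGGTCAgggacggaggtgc

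The Ciart window held 3 E-boxes, which begin 116, 58 and 44 bases before the gene start. An E-box was found in 4 members, Ciart, Cry1, Per1 and Tef, and in 7.15% of all 32851 windows, while 0.594% of all windows held 2 or more. The D-box was found in Per3, with copies that begin 205 and 158 bases before the start, and in 2.32% of all windows. The RORE core was found in the printed Arntl window, beginning at base 31 after the start, and in 2.61% of all windows. The other Arntl window, chr7:113207215-113207514, held no match to any of the motifs. The variant CACGTT was found in Cry1 and Nr1d1 and in 4.68% of all windows, and the cyclic AMP element in 0 members and in 1.79% of all windows. No 2 of these motifs overlapped in the printed windows. A match is a description of the letters in the window.

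The targeted gene matched the genotype labels. Fpr2 had 0 reads in all 4 Fpr2KO libraries, against 537, 479 and 477 reads in the WT libraries (exact two-sided permutation p = 0.0286, the smallest that 35 splits of 7 samples allow). Libraries held between 14968605 and 18692809 counts. B cell, T cell and red pulp macrophage markers were present in every library: the summed level of 5 B cell markers was 2570 to 2951 CPM in Fpr2KO and 2662 to 2798 CPM in WT. Other cell contents varied more. The erythroid list of 8 measured genes summed to 10030 to 51360 CPM in Fpr2KO and 14930 to 91800 CPM in WT, and 10 neutrophil genes summed to 1355 to 2736 CPM in Fpr2KO and 3509 to 4581 CPM in WT. A list of 14 pancreatic acinar genes summed to 943 and 541 CPM in Fpr2KO replicates 1 and 2, against 39.5 and 35.7 CPM in Fpr2KO replicates 3 and 4 and 24.0 to 49.0 CPM in WT. Outside Fpr2KO replicates 1 and 2 most of the acinar sum was Cela1. It was at 35.5 and 32.5 CPM in Fpr2KO replicates 3 and 4 and 28.8, 45.2 and 21.4 CPM in WT. Ctrb1 was at 94.05 and 70.5 CPM in Fpr2KO replicates 1 and 2, against at most 0.364 CPM in any other library. A list of 10 adipocyte genes summed to 37.5 to 43.3 CPM in Fpr2KO, against 54.3, 49.5 and 96.4 CPM in WT. In WT replicates 1 and 2 most of that sum was Lipe (32.85 and 32.78 CPM) and Fabp4 (17.46 and 15.64 CPM). Adipoq was at 0.067 and 0.26 CPM in these 2 libraries, and Plin1 at 0 CPM in both. WT replicate 3 stood apart in the list, with Adipoq at 3.99 CPM against at most 0.521 CPM in any other library. It was also the lowest library for Per2, Nr1d2, Ciart and Arntl. The part of acinar or adipocyte content in the clock gene values was not tested. Values without both Fpr2KO replicates 1 and 2, and without any single library, are given where they move a log2 fold change of the 10 clock genes by over 1.5 times. In bulk RNA, fewer cells of a type and less RNA per cell cannot be told apart.

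Between Fpr2KO and WT spleens, no clock gene differed by an amount that passed the test. With edgeR's quasi-likelihood test, 0 of the 10 members passed at an adjusted p under 0.05, where 6 of 16089 genes did (0.0373%), and 0 of the 10 had an unadjusted p under 0.05, where 4.99% of all genes did (1.92% higher and 3.07% lower in Fpr2KO). DESeq2 also called 0 of the 10 (0.354% of the genes it adjusted), and 0 had an unadjusted p under 0.05 in it (2.84% of all genes). The fitted level was higher in Fpr2KO for 8 members and lower for 2, Per1 and Nr1d1, where 48.6% of all genes had a higher fitted level. The median log2 fold change of the members was 0.19, beside a median of -0.0048 over all genes tested. The libraries of the 2 groups did not overlap for 1 member, Per3, which was higher in Fpr2KO. Over all genes 5.91% did not overlap, 2.73% being higher in Fpr2KO.

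**Figure D1:**
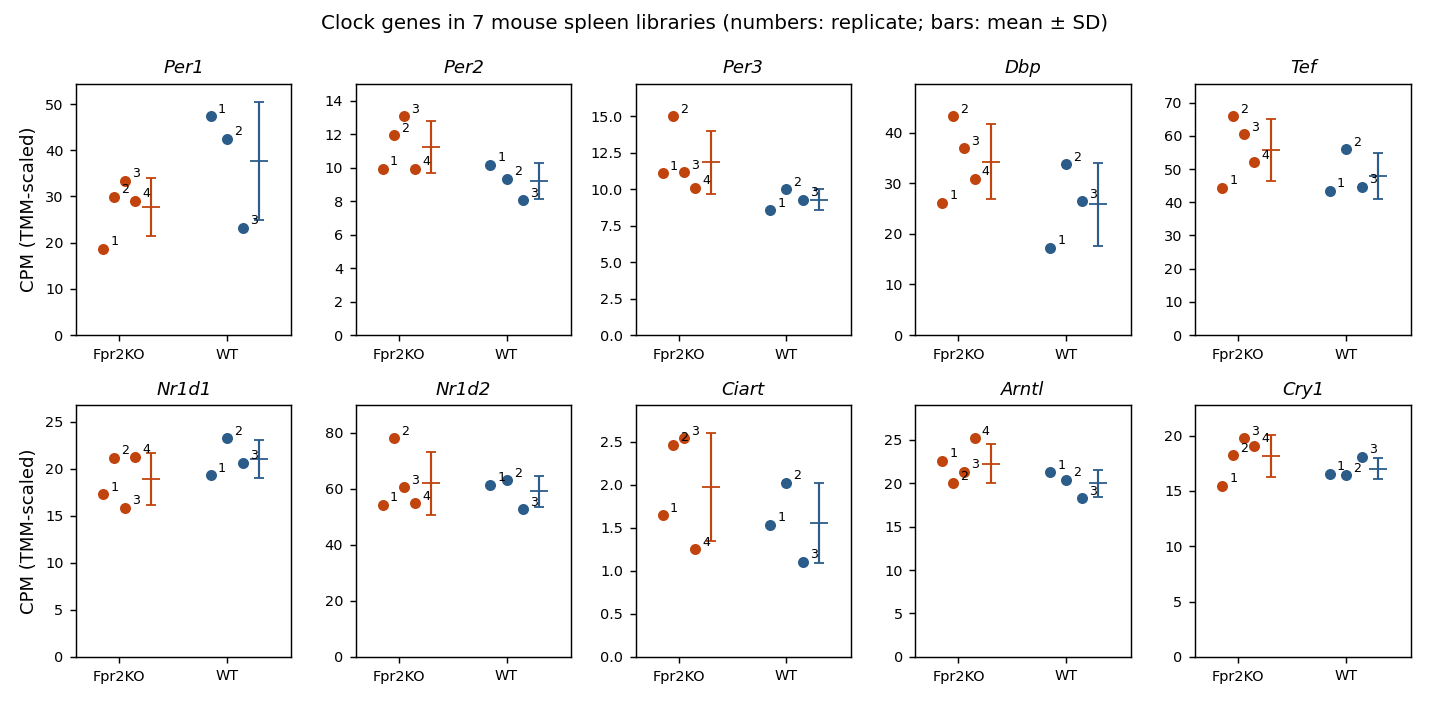
Level of each of the 10 clock genes (CPM, TMM-scaled, linear axis from 0) in the 4 Fpr2KO libraries, left, and the 3 WT libraries, right, each point being a library marked with its replicate number and each bar the mean ± SD of its group. The groups overlap in every panel but that of Per3, where the lowest Fpr2KO library, at 10.1 CPM, lies just above the highest WT library, at 10.01 CPM.

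Arntl, the activator of the loop (chromosome 7, 113207465 to 113314126, plus strand, GRCm38), was among the steadiest members. It had 22.6, 19.98, 21.4 and 25.2 CPM in Fpr2KO replicates 1 to 4, against 21.3, 20.4 and 18.3 CPM in WT replicates 1 to 3. All libraries lay within 1.38-fold of each other, with Fpr2KO replicate 4 highest and WT replicate 3 lowest. Its log2 fold change was 0.16 (SE 0.11, edgeR adjusted p = 1.00), with a 95% interval from -0.10 to 0.41. Omitting Fpr2KO replicate 4 gave 0.092, and omitting WT replicate 3 gave 0.096. Clock, its partner gene, averaged 44.9 ± 5.78 CPM in Fpr2KO (SD, n = 4) and 42.8 ± 5.19 CPM in WT (SD, n = 3), and its groups overlapped. Npas2, a relative that can replace CLOCK, was near the floor of counting, with 3 to 17 reads in Fpr2KO libraries and 3 to 6 reads in WT libraries, and was not tested.

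The 3 Per genes, whose proteins form the repressor with the CRY proteins, did not share a direction. Per1 (chromosome 11, 69095217 to 69109960, plus strand) had 18.7, 29.9, 33.4 and 29.1 CPM in Fpr2KO, against 47.3, 42.5 and 23.2 CPM in WT. WT replicates 1 and 2 lay above every Fpr2KO library, while WT replicate 3 lay below all Fpr2KO libraries except replicate 1. Its log2 fold change was -0.44 (SE 0.29, edgeR adjusted p = 1.00), with -0.24 when WT replicate 1 was left out and -0.69 when WT replicate 3 was. Omitting Fpr2KO replicate 1 gave -0.275, and omitting both Fpr2KO replicates 1 and 2 gave -0.26. The interval of the main value ran from -1.11 to 0.24, that is, from 0.462 to 1.18 times the WT level.

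Per2 (chromosome 1, 91415982 to 91459324, minus strand) had 9.93, 11.9, 13.1 and 9.94 CPM in Fpr2KO, against 10.2, 9.36 and 8.05 CPM in WT. Fpr2KO replicates 2 and 3 were above all WT libraries, and WT replicate 1 was above Fpr2KO replicates 1 and 4. For Per2 the log2 fold change was 0.29 (SE 0.15, edgeR adjusted p = 1.00). Per3 (chromosome 4, 151003652 to 151044665, minus strand), the gene with both D-boxes in its window, had 11.1, 15, 11.2 and 10.1 CPM in Fpr2KO, against 8.56, 10.01 and 9.28 CPM in WT. Each Fpr2KO library lay above each WT library, though Fpr2KO replicate 4 exceeded WT replicate 2 by little. Its log2 fold change of 0.35 (SE 0.16) had the smallest p of the 10 members in edgeR (unadjusted p = 0.0557, rank 883 of 16089 genes) and did not pass (adjusted p = 1.00). Without Fpr2KO replicate 2 it was 0.22, and without both Fpr2KO replicates 1 and 2 it was 0.20.

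Cry1, the repressor whose transcript comes last in the daily order (chromosome 10, 85131700 to 85185064, minus strand), had the narrowest range of the members, 1.28-fold. It had 15.5, 18.2, 19.8 and 19.1 CPM in Fpr2KO, against 16.5, 16.4 and 18.1 CPM in WT, and the groups overlapped. A log2 fold change of 0.09 (SE 0.12) had an interval from -0.17 to 0.36. Omitting Fpr2KO replicate 1 gave 0.17, omitting Fpr2KO replicate 3 gave 0.048 and omitting WT replicate 3 gave 0.14. Without both Fpr2KO replicates 1 and 2 the Cry1 value was 0.195. Its close relative Cry2 was as even, at 12.7 ± 0.91 CPM in Fpr2KO (SD, n = 4) and 11.7 ± 0.43 CPM in WT (SD, n = 3). Ciart, which encodes the repressor CHRONO (chromosome 3, 95878503 to 95882251, minus strand), was the lowest member. It had 28, 46, 43 and 24 reads in Fpr2KO, against 23, 31 and 18 reads in WT, or 1.65, 2.46, 2.54 and 1.25 CPM against 1.54, 2.03 and 1.11 CPM. At that depth the count of WT replicate 3 has an exact Poisson 95% interval of 10.7 to 28.45 reads and that of Fpr2KO replicate 2 one of 33.7 to 61.4 reads, for counting error alone. The log2 fold change of 0.34 (SE 0.34) had an interval from -0.41 to 1.09. Leaving out WT replicate 3 gave 0.14 and leaving out WT replicate 2 gave 0.58, while Ciart was at 0.215 without Fpr2KO replicate 2 and 0.20 without Fpr2KO replicate 3.

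Nr1d1 and Nr1d2, the genes of the repressors of Arntl, differed in sign and neither passed. Nr1d1 (chromosome 11, 98767932 to 98775333, minus strand) had 17.3, 21.2, 15.9 and 21.2 CPM in Fpr2KO, against 19.3, 23.2 and 20.6 CPM in WT. Fpr2KO replicates 1 and 3 were below every WT library, and replicates 2 and 4 were between WT replicates 3 and 2. Its log2 fold change was -0.15 (SE 0.14, edgeR adjusted p = 1.00). That value shrank to -0.077 without WT replicate 2, -0.079 without Fpr2KO replicate 3 and -0.10 without Fpr2KO replicate 1. Nr1d1 shares 263 exon bases, 8.55% of its exons, with Thra on the opposite strand. The sources used here state no strand setting for the counting, so reads of these bases cannot be told apart. Thra had 16.0 ± 1.47 CPM in Fpr2KO (SD, n = 4) and 14.3 ± 0.67 CPM in WT (SD, n = 3).

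Nr1d2 (chromosome 14, 18204054 to 18239127, minus strand) had 54.3, 78.1, 60.5 and 54.8 CPM in Fpr2KO, against 61.4, 63.1 and 52.7 CPM in WT. Fpr2KO replicate 2 stood above the other 6 libraries, which lay between 52.7 and 63.1 CPM. The log2 fold change of 0.07 (SE 0.14) turned to -0.063 without that library, to -0.0069 without WT replicate 3 and to -0.029 without both Fpr2KO replicates 1 and 2. Omitting Fpr2KO replicate 1, Fpr2KO replicate 4 or WT replicate 2 gave 0.14, 0.12 and 0.12. Rora, whose protein activates at the RORE sites that REV-ERB proteins repress, averaged 11.4 ± 2.19 CPM in Fpr2KO (SD, n = 4) and 9.63 ± 0.35 CPM in WT (SD, n = 3). Its groups overlapped, and its log2 fold change of 0.25 (SE 0.16) was 0.11 without Fpr2KO replicate 2.

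The output genes Dbp and Tef ranked the libraries alike. Dbp (chromosome 7, 45705088 to 45710203, plus strand) had 26.1, 43.2, 36.9 and 30.9 CPM in Fpr2KO, against 17.3, 33.8 and 26.4 CPM in WT. Fpr2KO replicate 2 was highest and WT replicate 1 lowest, 2.50-fold apart, and the rest interleaved. For Dbp that came to 0.41 on the log2 scale (SE 0.25, adjusted p = 1.00 in edgeR), with an interval from -0.17 to 0.99. Single WT libraries moved it: leaving out replicate 1 gave 0.19 and leaving out replicate 2 gave 0.65. Of the exon bases of Dbp, 539 (18.0%) are shared with Sphk2 on the opposite strand. Sphk2 had 36.6 ± 2.55 CPM in Fpr2KO (SD, n = 4) and 37.1 ± 4.52 CPM in WT (SD, n = 3), and its lowest library was also WT replicate 1, at 32.05 CPM. The part of these shared bases in the Dbp counts was not tested.

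Tef (chromosome 15, 81802421 to 81826863, plus strand) had 44.4, 65.8, 60.5 and 52.1 CPM in Fpr2KO, against 43.4, 55.9 and 44.6 CPM in WT. Its order over the 7 libraries was that of Dbp in full (Pearson r = 0.90 on log2 CPM, exact permutation p = 0.00258, or 0.0464 adjusted over 18 relations of Dbp and Arntl with the other members; Spearman rho = 1.00, exact p = 0.000397, or 0.00714 adjusted). Without the 2 libraries farthest from the median of Dbp, r was 1.00. Over all 7 libraries Tef ranked 34th of 16088 genes by Pearson r with Dbp. Tef had a log2 fold change of 0.22 (SE 0.15). Leaving out Fpr2KO replicate 2 gave 0.13, and leaving out WT replicate 2 gave 0.34. Hlf, the remaining PAR bZIP gene and not a member, had 4.47, 7.61, 5.62 and 5.99 CPM in Fpr2KO, against 2.48, 5.76 and 3.56 CPM in WT. The groups overlapped, and its log2 fold change of 0.59 (SE 0.29) became 0.35 when WT replicate 1 was omitted and 0.97 when WT replicate 2 was. By Pearson r with Dbp it ranked 5th of 16088 genes (r = 0.96, rho = 0.82). The other genes that the likeness rule names for Dbp were Pdcd7, Tmem126b, Polr3g and the pseudogene Nxpe1-ps, with r between 0.94 and 0.97 over the 7 libraries. Pdcd7, not on either clock list, also had the order of Dbp in full (rho = 1.00), so that match was not particular to Tef.

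Nfil3, the gene of the repressor that binds the same D-box as DBP, TEF and HLF, lay the other way. It had 5.64, 5.68, 7.39 and 6.30 CPM in Fpr2KO, against 12.9, 9.10 and 8.97 CPM in WT. Each Fpr2KO library was below each WT library. Its log2 fold change of -0.72 (SE 0.18, 95% interval -1.13 to -0.32) had the smallest p of the other clock genes (unadjusted p = 0.00262, rank 75 of 16089) and did not pass in edgeR (adjusted p = 0.545) or DESeq2 (adjusted p = 0.106). Over 16 alternative settings the value stayed between -0.81 and -0.53. Nfil3 is also expressed in myeloid cells, and the neutrophil list was below WT in all 4 Fpr2KO libraries, from 1355 to 2736 CPM against 3509 to 4581 CPM. All 10 genes of that list had a lower fitted level (median log2 fold change -1.06), where 48.6% of all genes had a higher one. The part of neutrophil content in the Nfil3 value was not tested.

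**Figure D2:**
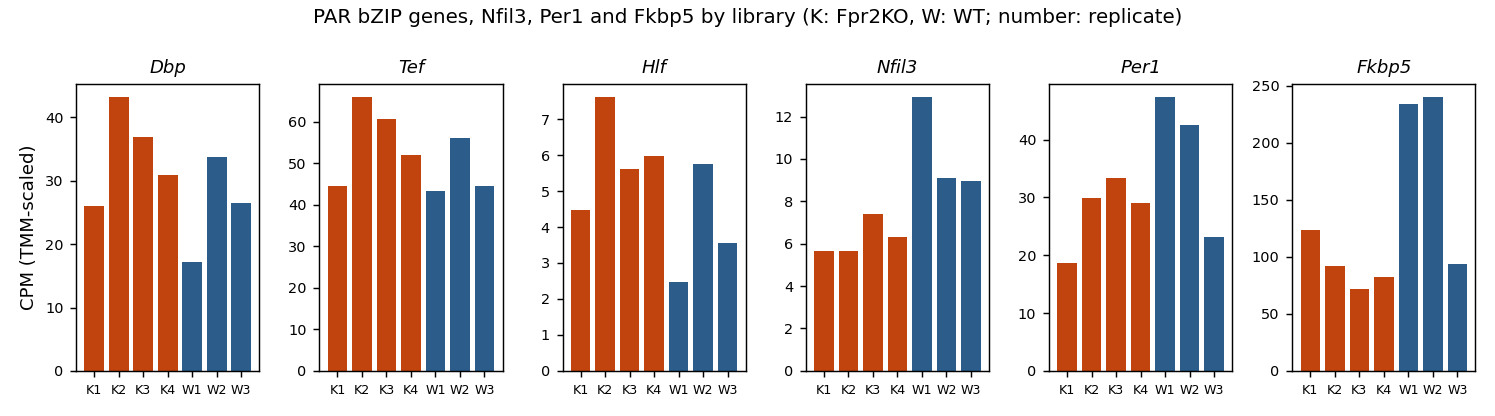
Level (CPM, TMM-scaled, linear axis from 0) of the PAR bZIP genes Dbp, Tef and Hlf, their competitor Nfil3, Per1 and the glucocorticoid target Fkbp5, with 1 bar for each library, Fpr2KO (K) left and WT (W) right. Dbp, Tef and Hlf are highest in Fpr2KO replicate 2 and lowest in WT replicate 1. Nfil3 is below 7.4 CPM in every Fpr2KO library and above 8.9 CPM in every WT library. Per1 and Fkbp5 are highest in WT replicates 1 and 2, but among Fpr2KO libraries replicate 1 is lowest in Per1 and highest in Fkbp5.

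Over the whole list of 26 other clock genes, 23 were tested and 0 passed edgeR's test in either direction, or DESeq2's. At an unadjusted p under 0.05 there were 3 in edgeR, 2 higher, with Tspan4 among them, and 1 lower, Nfil3, which is 3 of 23 beside 4.99% of all genes, and DESeq2 gave 3 as well. A higher fitted level was found in 12 and a lower one in 11, with a median log2 fold change of 0.0041. The groups did not overlap for 3, Nfil3, Tspan4 and Cipc, beside 5.91% of all genes. Tspan4, a tetraspanin gene, averaged 92.0 ± 7.44 CPM in Fpr2KO (SD, n = 4) and 78.4 ± 4.82 CPM in WT (SD, n = 3), with a log2 fold change of 0.23 (SE 0.09). Bhlhe40, an E-box repressor gene, averaged 43.0 ± 5.18 CPM in Fpr2KO and 41.8 ± 6.37 CPM in WT. Its relative Bhlhe41 averaged 11.6 ± 1.67 CPM in Fpr2KO and 12.1 ± 7.70 CPM in WT, where replicate 3 had 21.02 CPM and the others 7.23 and 8.18 CPM. Arntl2 and Rorb, both untested, had at most 12 and 4 reads in a library.

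**Figure D3:**
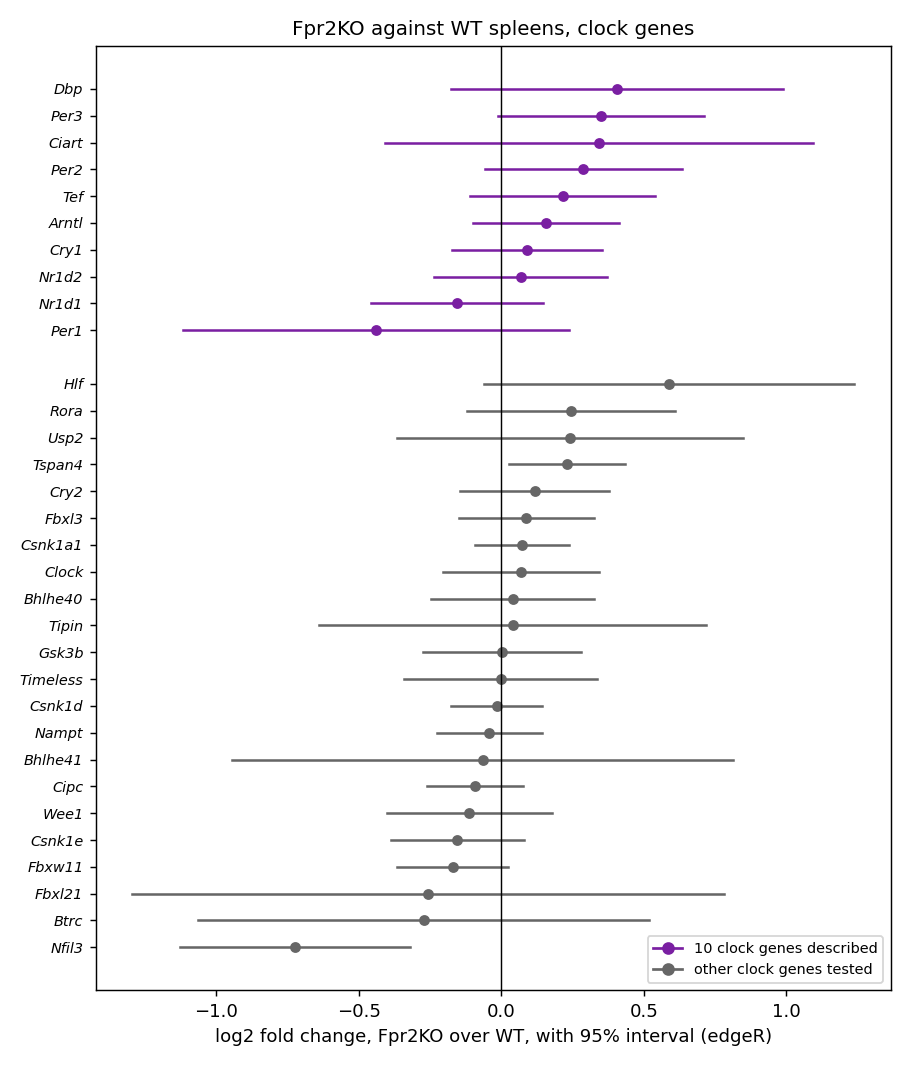
Log2 fold change (Fpr2KO over WT) from edgeR with its 95% interval for the 10 clock genes described (purple, top) and other clock genes tested (grey, below). All 10 intervals of the clock genes described include 0, and of the others drawn those of Tspan4 and Nfil3 do not.

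Per1 is also a direct target of the glucocorticoid receptor, and the level of other targets of that receptor was set beside it. The summed level of 11 such genes, Per1 not among them, was 623, 607, 820 and 524 CPM in Fpr2KO, against 997, 1074 and 579 CPM in WT. WT replicates 1 and 2 were above every Fpr2KO library and WT replicate 3 was not, as for Per1. Fkbp5, a chaperone gene induced by the receptor, had 123, 92.2, 71.5 and 82.3 CPM in Fpr2KO, against 234, 240 and 94.0 CPM in WT. Within Fpr2KO the extremes of Fkbp5 and Per1 were reversed. Replicate 1 was highest in Fkbp5 and lowest in Per1 (18.7 CPM), and replicate 3 was lowest in Fkbp5 and highest in Per1 (33.4 CPM). The other targets were divided in this. Tsc22d3 (115.2, 186.5, 292.9 and 148.8 CPM), Ddit4, Errfi1 and Cdkn1a were lowest in replicate 1 and highest in replicate 3, as Per1 was. Zbtb16, Sult1a1, Mt1 and Mt2 were highest in replicate 1, as Fkbp5 was. Klf9 and Sgk1 were highest in replicate 3 but not lowest in replicate 1. Of the 11, 0 passed edgeR's test, 9 had a lower fitted level, and 4 had an unadjusted p under 0.05, all lower. Over all genes 3.07% were lower at that unadjusted p, and 48.6% had a higher fitted level. The immediate early genes had 10 of 11 at a lower fitted level, with sums of 216 to 297 CPM in Fpr2KO and 273 to 370 CPM in WT and 0 passing. The part of either list in the Per1 values was not tested.

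Set per kilobase of exon, the members lay between 11.2 CPM for Nr1d2 and 0.795 CPM for Ciart. Over all 7 libraries the level per kilobase was 11.2 ± 1.596 CPM for Nr1d2 and 10.2 ± 2.81 CPM for Dbp (SD, n = 7), which overlapped. Tef, Nr1d1, Per1 and Cry1 formed a middle band at 6.66 ± 1.12, 6.44 ± 0.82, 5.68 ± 1.80 and 5.28 ± 0.46 CPM per kilobase, and neighbours in it changed places between libraries. Arntl at 2.83 ± 0.29, Per2 at 1.77 ± 0.28, Per3 at 1.12 ± 0.22 and Ciart at 0.795 ± 0.25 CPM per kilobase each lay below the gene before it in all 7 libraries. Dbp lay above Tef in all 7 as well.

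The members also differed in how far apart the libraries of a group were. The pooled within-group SD of log2 CPM was 0.13 for both Arntl and Cry1, at the 28.0th and 27.5th percentile of all genes tested. It was 0.45 for Per1, 0.44 for Ciart and 0.39 for Dbp, at the 84.4th, 83.5th and 79.5th percentile. The biological coefficient of variation that edgeR gave was 0.266 for Per1 and 0.235 for Dbp, above the 0.168 and 0.169 of its trend at their levels, while that of Ciart, 0.268, was at its trend of 0.271. Arntl and Cry1 were below their trends, at 0.137 against 0.181 and 0.139 against 0.188.

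**Figure D4:**
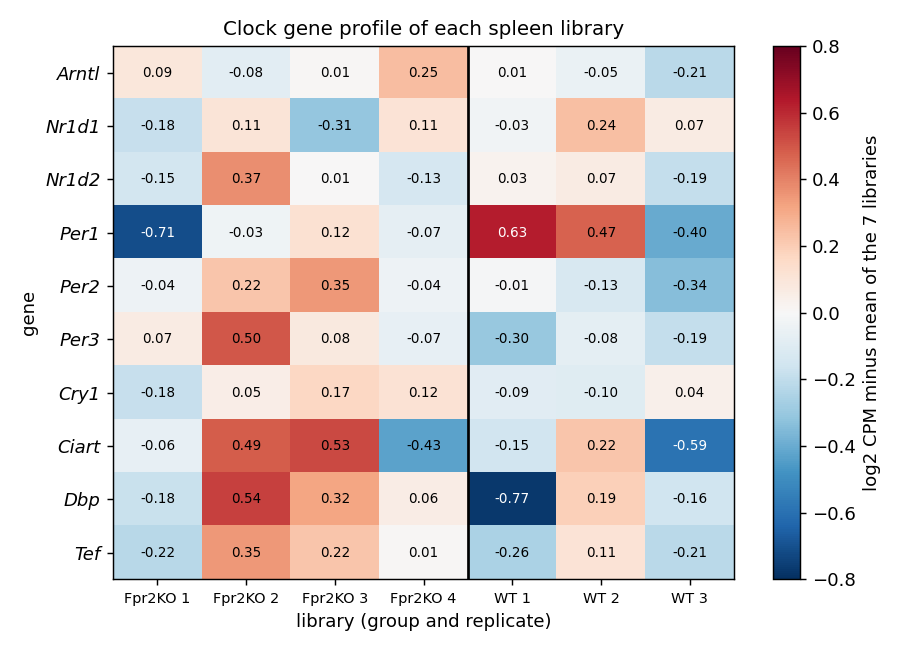
Profile of each library over the 10 clock genes, as log2 CPM minus the mean of the 7 libraries (colour and printed value), with Fpr2KO libraries left of the line and WT libraries right of it, and genes ordered by role. Above the mean are 2, 8, 9 and 5 of the 10 genes in Fpr2KO replicates 1 to 4, and 3, 6 and 2 in WT replicates 1 to 3, and the largest departures are those of Dbp in WT replicate 1, at -0.77, and Per1 in Fpr2KO replicate 1, at -0.71.

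Whether the libraries fit 1 time of day was described from ratios within a library, which do not depend on scaling. In the daily order given above, genes of the light phase and Arntl reach their peaks at different times. The ratio of Dbp to Arntl counts was 1.16, 2.16, 1.73 and 1.22 in Fpr2KO, against 0.811, 1.65 and 1.45 in WT, on the log2 scale 0.60 ± 0.43 (SD, n = 4) against 0.32 ± 0.55 (SD, n = 3). The groups overlapped, and libraries of 1 genotype differed more than the group means did. That range came from Dbp, since Arntl was at 19.98 CPM in Fpr2KO replicate 2 and 21.3 CPM in WT replicate 1, the libraries at the ends. Over the 7 libraries Dbp and Arntl had a weak relation that depended on single libraries (Pearson r = -0.06, exact permutation p = 0.890; Spearman rho = -0.21, exact p = 0.662; r = 0.16 without the 2 libraries farthest from the median of Dbp and -0.525 without the 2 farthest from the median of Arntl; adjusted p = 0.950 and 0.889 over the 18 relations).

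The Nr1d1 to Arntl ratio was 0.766, 1.06, 0.742 and 0.843 in Fpr2KO, against 0.906, 1.14 and 1.13 in WT. Its log2 mean was -0.24 ± 0.23 in Fpr2KO (SD, n = 4) and 0.07 ± 0.19 in WT (SD, n = 3), with Fpr2KO replicate 2 inside the WT range. This ratio had a lower mean in Fpr2KO while that of Dbp to Arntl had a higher one. In the daily order given above Dbp comes later than Nr1d1, so these ratios need not move together. The log2 ratio of Per3 to Arntl was -0.92 ± 0.38 in Fpr2KO and -1.11 ± 0.18 in WT, that of Ciart to Arntl -3.55 ± 0.63 and -3.72 ± 0.36, and that of Per2 to Cry1 -0.70 ± 0.16 and -0.89 ± 0.24, in that order of groups. All 5 ratios overlapped between the groups. The difference for Dbp to Arntl was 0.28, which became -0.03 when WT replicate 1 was omitted and 0.48 when WT replicate 2 was. With 1 library omitted, the difference ranged from -0.0054 to 0.43 for Ciart to Arntl, lowest without Fpr2KO replicate 2, from 0.014 to 0.32 for Per3 to Arntl, lowest without the same library, and from 0.061 to 0.29 for Per2 to Cry1, lowest without WT replicate 3. With no collection time and no time course among these files, a clock hour could not be read for any library, and a shared hour and a modest spread of hours cannot be told apart.

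**Figure D5:**
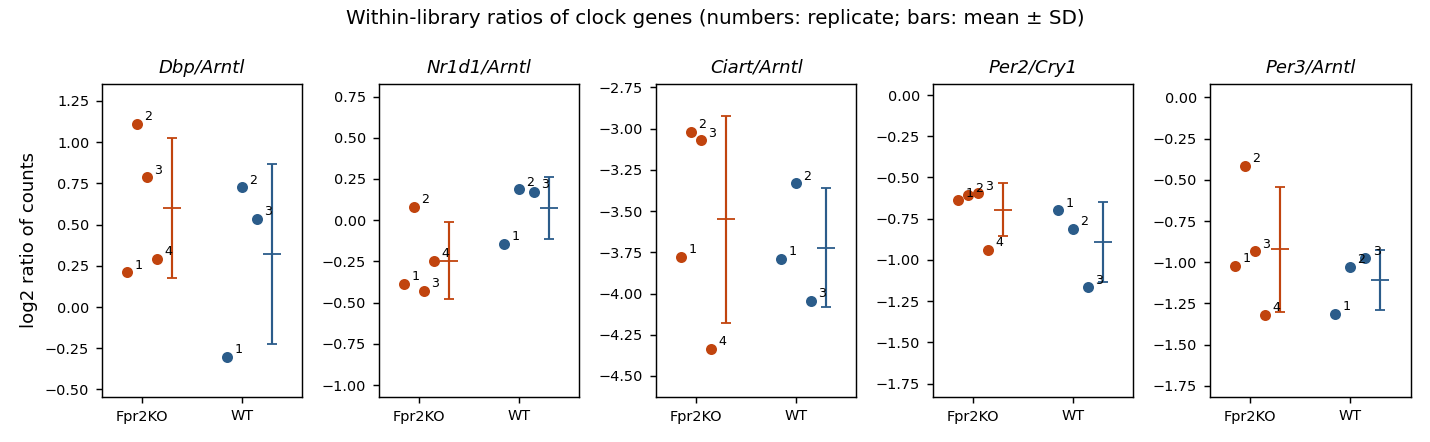
Log2 ratio of the counts of 2 clock genes within each library, for 5 pairs, with Fpr2KO libraries left and WT libraries right, points marked with the replicate number and bars showing mean ± SD (each panel spans the same height on the log2 axis). The groups overlap in all 5 panels, and the widest range is that of Dbp to Arntl, from -0.30 in WT replicate 1 to 1.11 in Fpr2KO replicate 2.

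Arntl had its own set of like genes. Under the same rule they were Commd10, Taf4, Scn4a and Tcim among others, with r between 0.95 and 0.97 over the 7 libraries. The other 9 members had r with Arntl between -0.25 for Nr1d2 and 0.26 for Per2, and none passed (smallest exact permutation p = 0.571). Without the 2 libraries farthest from the median of Arntl, r over the remaining 5 was below 0 for all 9, from -0.90 for Nr1d2, -0.73 for Tef and -0.73 for Nr1d1 to -0.18 for Per2, so these relations also rest on those 2 libraries. With Dbp, after Tef came Per3 (r = 0.80, rho = 0.75, exact permutation p = 0.0399 and 0.0663, adjusted p = 0.359 and 0.596), whose r was 0.33 without the 2 libraries farthest from the median of Dbp. Per1 had r = -0.16 with Dbp, and 0.86 without those 2 libraries, so it rests on them.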

How the data were processed

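Polyadenylated RNA of 7 mouse spleen samples, 4 Fpr2KO and 3 WT, was extracted with a Qiagen RNeasy kit and made into libraries with a NEBNext Ultra II kit, per the labels' protocols. The authors deposited 1 table of raw read counts per Ensembl gene. The submitters' processing notes name FastQC 0.10.1, HTSeq 0.10.0 and the builds mm10 and GRCm38. Aligner, annotation release and strand setting: not given in the sources used here. All rows named a gene. GENCODE M21 supplied symbols and positions for 52133 of 55414 IDs (99.8% of counts), and 3281 had no match.

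Counts were compared, as Fpr2KO over WT, with edgeR 4.0.16 in R 4.3.3 (TMM scaling, filterByExpr defaults, robust quasi-likelihood F test, Benjamini-Hochberg over 16089 genes, threshold 0.05). CPM are TMM-scaled, and log2 CPM for correlations used a prior count of 2. A floor of 3 counts is 0.156 to 0.201 CPM per library. Intervals and floors of counts cover counting error only, and the labels name no molecular identifiers, without which PCR copies are counted as reads. The step was tested on simulated data. Exact permutation tests served Fpr2 and the correlations. The members and all lists were chosen with earlier results of these data known. Named genes were the 10 members, 9 other clock genes, those others with the 4 smallest p, and the 5 genes most like Dbp and Arntl (mean of at least 5 CPM, no Gm, Rik or accession names, no immunoglobulin or T cell receptor segments). Some genes the rule names are not reported here. The RORE letters were narrowed, and the windows to print chosen, after the matches were seen. Alternatives tried were DESeq2 1.42.0, RLE or upper-quartile factors, other count filters, each library left out, Fpr2KO replicates 1 and 2 left out, a replicate block, other library sizes and non-robust estimation.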

Additional observations from a re-analysis of the deposited data

Results flagged for a closer look

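The log2 ratio of Per2 to Cry1 in Fpr2KO replicate 4 was -0.94, apart from the other 3 Fpr2KO libraries at -0.64, -0.61 and -0.60, and inside the WT range of -1.17 to -0.70. It was the 1 result to stand apart of 24 that were looked at in the 4 Fpr2KO libraries, where chance marks about 1 in 20.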

How the results depend on the processing

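Over 16 alternative settings, 0 of the 10 clock genes and 0 of the 23 other tested clock genes passed in any, and 157 of 160 values of the members kept their sign. The 3 that did not were Nr1d2 without Fpr2KO replicate 2 (-0.063), without WT replicate 3 (-0.0069) and without both Fpr2KO replicates 1 and 2 (-0.029). With 1 library left out, the members at an unadjusted p under 0.05 numbered 0 to 1 and the genes called over all genes 5 to 15, against 6 with all libraries. The members' count was 1 without Fpr2KO replicate 1, Fpr2KO replicate 4, WT replicate 2 or WT replicate 3, and the genes called were 10 without WT replicate 1 and 15 without WT replicate 3. DESeq2 called 58 genes and edgeR without a low count filter 21. The cause of these differences was not tested. Among the other clock genes, the sign turned for Clock without Fpr2KO replicate 2 (-0.012) or WT replicate 2 (-0.0235; range with 1 library left out up to 0.15), for Bhlhe40 without Fpr2KO replicate 4 (-0.046), WT replicate 2 (-0.078; range up to 0.13) or with the replicate block (-0.0355), and for Bhlhe41 without Fpr2KO replicate 1 (0.0069), without WT replicate 3 (0.59; range from -0.33) or with the block (0.081).

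Deviations of same-numbered libraries from their group means correlated at 0.08, -0.43 and -0.07 over genes, and not every library correlated best with its own number. The deviations of a group sum to 0 by construction, so these values cannot decide whether same-numbered libraries share a batch. The replicate block gave 2 called genes and 2 members at an unadjusted p under 0.05, Dbp (log2 fold change 0.48) and Per3 (0.41), of which 0 passed after adjustment in edgeR.

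The median log2 fold change of the members ranged from 0.14 to 0.25 with 1 library left out. Of the members, depth limits Ciart most, with at most 46 reads in a library.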

Other observations

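Btrc and Tipin, genes of the wider clock list that cells outside the clock also use, were singled out after their values were seen, for a wide spread between libraries. Btrc, a subunit of the ubiquitin ligase that marks PER proteins, had 44.8, 19.7, 27.1 and 27.7 CPM in Fpr2KO, against 42.4, 42.1 and 23.4 CPM in WT. The erythroid marker sum was 51360, 10030, 19210 and 25220 CPM in Fpr2KO, against 42580, 91800 and 14930 CPM in WT, and the 3 libraries with the most Btrc were the 3 with the highest sum. Tipin, a replication fork gene, had 66.4, 31.4, 42.2 and 37.5 CPM in Fpr2KO, against 33.6, 53.6 and 42.2 CPM in WT. Its order did not follow that sum in full. WT replicate 1 was low in Tipin and high in the sum. WT replicate 3 was above Fpr2KO replicate 4 in Tipin and below it in the sum. The part of erythroid content in these values was not tested.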
